A study of Danaus plexippus with 48 samples.

Results

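The 100 most abundant transcripts of the monarch butterfly brain are described, as measured by RNA sequencing of Danaus plexippus. A gene was a member if it was among the 100 with the highest mean FPKM (fragments per kilobase of transcript per 1e6 mapped reads) over the 16 LP libraries, and if those libraries held a mean of at least 100 reads of it. The deposited tables listed 15130 genes, of which 7890 met the minimum of reads, and 11630 had a mean FPKM of at least 0.5 over all 48 libraries and were tested. All 100 members were among the genes tested. The study compared wild-type butterflies of 3 groups, each with 16 libraries: 2 pools of 3 brains at each of 8 times of day. LP (long photoperiod) butterflies lived under a light phase of 15 h and a dark phase of 9 h, and SP (short photoperiod) butterflies under a light phase of 10 h and a dark phase of 14 h. Both were raised in the laboratory, on an artificial diet as larvae and on honey solution as adults, from eggs of wild-type parents. Migrant butterflies were caught in the wild during the fall migration and lived under 11 h light and 13 h dark. All groups were held at 21 °C and 70% humidity for at least 7 days, and the pigmented photoreceptor layer of the retina was removed from the brains. Times are zeitgeber times (ZT, hours after lights-on) 1, 4, 7, 10, 13, 16, 19 and 22.

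Monarch butterflies that emerge in the shortening days of fall delay reproduction and fly south, guided by a sun compass that is corrected for time of day by circadian clocks. Day length sets the reproductive state of many insects through the brain. In animal tissues the most abundant polyadenylated transcripts commonly serve protein synthesis, energy metabolism and the cytoskeleton, and they are often read as stable background. The deposited tables gave no gene names, and the gene table used here matched none of the identifiers. The members are therefore named by identifier, no function is assigned to them, and no check of tissue by marker genes could be made.

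The shallowest library held 5.47 M reads in genes (M, 1e6) and the deepest 10.6 M, with means of 9.0 M for the LP libraries, 7.27 M for SP and 6.94 M for Migrant. Migrant libraries were made with another kit than LP and SP libraries, so kit, wild origin and group cannot be told apart. In LP and Migrant the replicate 1 pool was labelled female and the replicate 2 pool male, and in SP the reverse, so that within a group sex label and replicate number cannot be told apart. One Migrant library, ZT22 replicate 1, stood apart in the share of its signal held by the members, as given below. In pools of whole brains, fewer cells of a type and less RNA per cell cannot be told apart.

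Levels of the members in LP ran from 1775040 FPKM down to 1868 FPKM. These levels chose the members and are a description. At the lower edge, DPOGS205446 was last in at 1867.76 FPKM, and DPOGS205872 was first out at 1865.01 FPKM. The minimum of reads kept out 7 genes with higher FPKM, among them DPOGS203663, listed at 8578 FPKM on a mean of 56.8 reads. The member nearest above that minimum was DPOGS202633, with 24878 FPKM on 101.2 reads. The other members had a mean of up to 120316 reads per LP library, and the median member had 5217.

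A high FPKM did not mean many reads. The genomic span of a gene, from its start to its end in the deposited tables, had a median of 1036.5 bases over the members and 3430.5 bases over the genes tested. Among the members, 20 of 100 spanned under 300 bases, against 2.75% of the genes tested. A further 28 members spanned 300 to under 1000 bases, and 52 spanned 1000 bases or more. One FPKM in LP stood for a median of 1.63 reads over the members and 12 reads over the genes tested. Of the 100 genes with the most reads in LP, 26 were members.

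**Figure D1:**
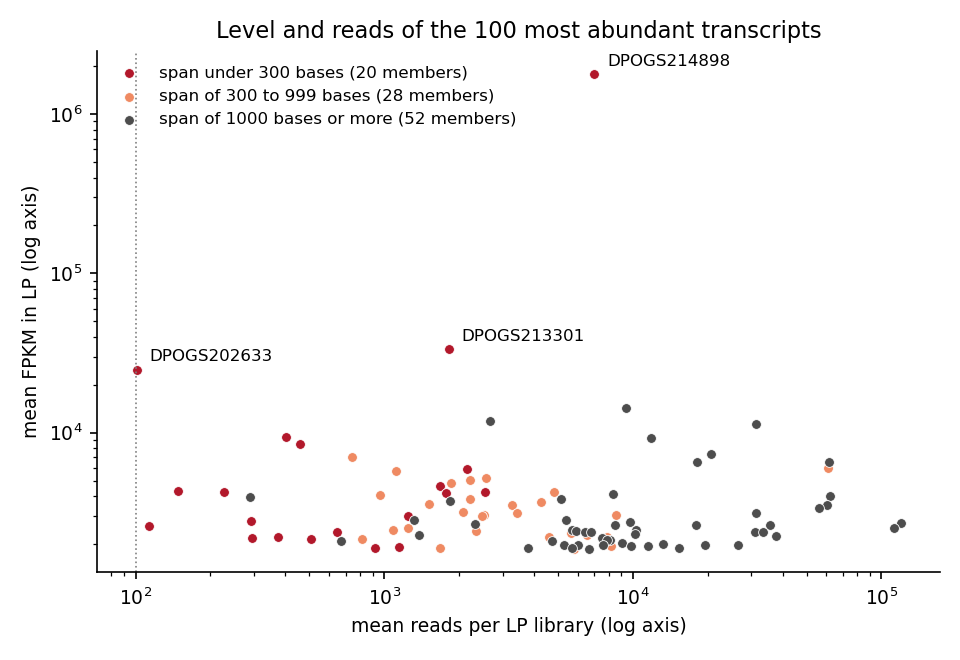
Mean FPKM against mean reads per library over the 16 LP libraries, both on log axes, for the 100 members, coloured by genomic span; the dotted line is the minimum of 100 reads. DPOGS214898 lies far above the others on 7012 reads, and most members of short span lie left of the members of 1000 bases or more.

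The members lay on 80 of the 867 scaffolds in the tables, and 38 of them shared a scaffold with another member. Only 2 pairs were next to each other in the tables: DPOGS205266 with DPOGS205265, both spanning 202 bases on scaffold DPSCF300021, and DPOGS206151 with DPOGS206152 on scaffold DPSCF300028. Some members had exactly equal spans, including DPOGS214898 and DPOGS202633 at 70 bases, a set of 3 at 118 bases that includes DPOGS213301, and DPOGS213218 and DPOGS207744 at 223 bases. If these are copies of one sequence, the split of reads between them is uncertain. No member was listed at 0 in any library. Mean reads were under 100 for 3 members in SP and for 7 in Migrant.

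The first member, DPOGS214898 (scaffold DPSCF300579, positions 8635 to 8705, on a genome build not given in the sources used here), stood apart from all others. Its level in LP was 1425830 FPKM in the lowest library, 1788670 in the median and 2098000 in the highest. In SP it ran from 274005 through 833421 to 2096940 FPKM, and in Migrant from 10488 through 755327 to 1165900 FPKM. The LP and Migrant libraries did not overlap, while the SP libraries reached across both. For this gene 1 FPKM stood for 0.00395 reads, and the mean of 7012 reads in LP ranked 168 among all genes. Division by its span of 70 bases alone would make 1 FPKM stand for 0.63 reads at the mean LP depth, so its FPKM is far higher than its span and reads give. What else entered the deposited value was not tested, and its level in FPKM and its share of the summed FPKM rest on it. The same holds for DPOGS202633 (0.00407 reads per FPKM, against 0.63 from the span) and DPOGS213301 (0.0544, against 1.06). The value from the span was worked out for no other member. Other short members also had few reads per FPKM, such as DPOGS209441 (span 106 bases, 0.0343) and DPOGS200796 (span 267 bases, 0.0438).

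The next members were far lower. DPOGS213301 (scaffold DPSCF300130, positions 530996 to 531114) had 27628 to 38510 FPKM in LP with a median of 34054, 59453 to 122410 with a median of 84760 in SP, and 12765 to 35214 with a median of 15543 in Migrant. SP lay above both other groups without overlap. Of the Migrant libraries only ZT22 replicate 1, at 35214 FPKM, reached into LP, and the next highest had 23824 FPKM. DPOGS202633 had 19513 to 32637 FPKM in LP, 32395 to 57929 in SP and 7852 to 15252 in Migrant, on means of 101.2, 134.3 and 46.1 reads. Its order of groups was the same, with LP and SP just overlapping.

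DPOGS210413 (scaffold DPSCF300062, span 1018 bases) had 11253 to 16735 FPKM in LP, 19963 to 37297 in SP and 4297 to 12481 in Migrant. DPOGS202260 (scaffold DPSCF300032, span 1017 bases) had 9318 to 15025 FPKM in LP, 18984 to 37407 in SP and 2147 to 5792 in Migrant. Both were highest in SP and lowest in Migrant, as DPOGS213301 was, and for DPOGS202260 no library of one group reached into another group. With every library scaled to the same summed FPKM, the log2 difference between Migrant and LP turned to 0.06 for DPOGS213301, shrank to -0.11 for DPOGS210413 and -0.19 for DPOGS202633, and was -0.77 for DPOGS202260.

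Together the members held 73.8% ± 2.05 (SD, n = 16) of the summed FPKM in LP, 64.0% ± 6.01 in SP and 63.1% ± 8.73 in Migrant. DPOGS214898 alone held 60.1% ± 3.19 in LP, 34.2% ± 14.3 in SP and 47.0% ± 14.6 in Migrant. With it left out of members and sum, the other 99 members held 34.3% ± 0.50 in LP, 44.6% ± 3.14 in SP and 29.9% ± 2.06 in Migrant. The order of the groups thus turned on that gene: with it LP had the highest share, and without it SP did.

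As a share of reads in genes, which weights long transcripts more, the members held 13.2% ± 0.30 in LP, 19.3% ± 2.28 in SP and 10.9% ± 1.03 in Migrant. The LP libraries lay between 12.8% and 13.6%, and the SP libraries between 16.3% and 23.4%. The Migrant libraries lay between 10.1% and 14.4%, and the highest of them was ZT22 replicate 1, without which the range ended at 11.6%. SP lay above LP and Migrant with no overlap, and Migrant lay below LP in all libraries but that one.

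In Migrant ZT22 replicate 1, DPOGS214898 stood at 10488 FPKM on 41.4 reads, and the members held 37.0% of the summed FPKM. The next lowest Migrant library had 310900 FPKM of this gene, and a members' share of 50.3%. DPOGS214898 and the other 99 members moved apart from each other within pairs of pools: at 7 of 8 times in LP, 8 of 8 in SP and 7 of 8 in Migrant, the pool with more FPKM of this gene had the lower summed FPKM of the other 99.

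**Figure D2:**
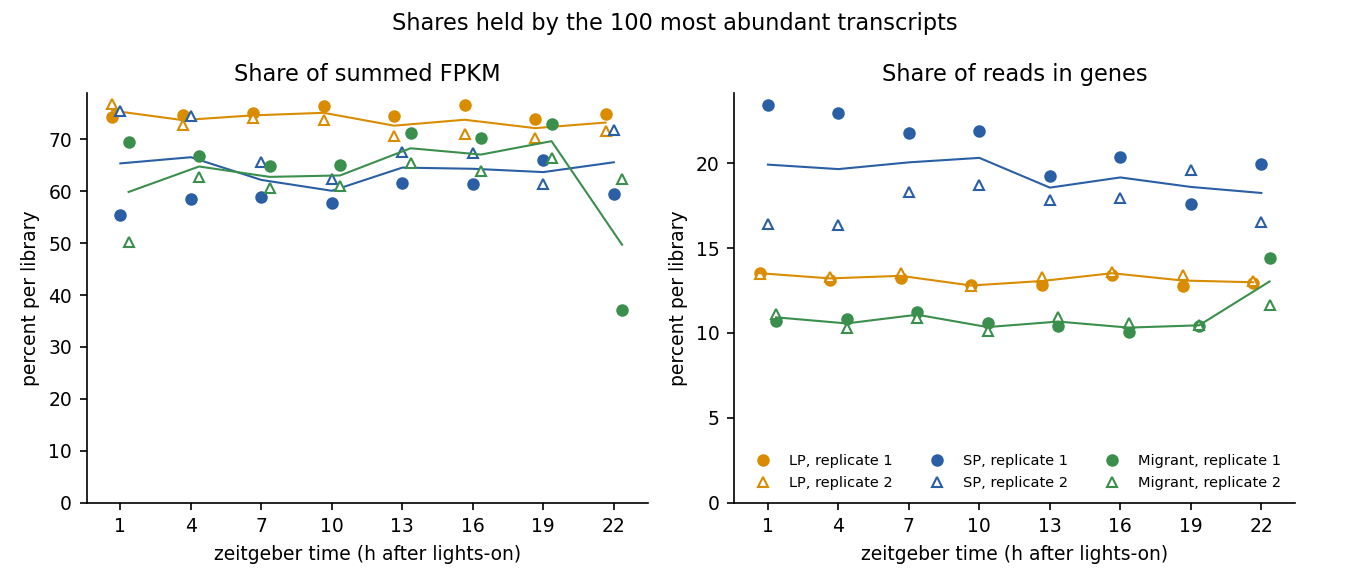
Share of the summed FPKM (left) and of the reads in genes (right) held by the 100 members in each library, in percent, against zeitgeber time; filled circles are replicate 1, open triangles replicate 2, and lines join the means of both pools. By reads, SP lies between 16.3% and 23.4%, LP between 12.8% and 13.6%, and Migrant ZT22 replicate 1 at 14.4% above all other Migrant libraries.

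The comparison of SP with LP asks how short days and long days differ in mean level. Most members were higher in SP, and the median log2 difference over the members was 1.01, against -0.00 over the genes tested. Limma called 84 members higher and 12 lower at an adjusted p under 0.05, against 39.2% higher and 40.8% lower of the genes tested. At least a 2-fold difference was called for 51 members higher and 9 lower (6.16% and 20% of the genes tested). The 16 SP and 16 LP libraries did not overlap for 72 members higher and 7 lower in SP (18.5% and 21.4%). LP levels chose the members, so these counts are a description. When members were chosen from LP pools of one replicate and SP was compared with LP pools of the other replicate, 81 and 84 were called higher and 11 and 9 lower. After median-ratio scaling 84 members were called higher and 11 lower (40.6% and 40.3% of the genes tested), and after scaling to the same summed FPKM also 84 and 11 (41.2% and 36.9%). Each SP library had 85 to 89 members above their LP mean, and its median member lay 0.565 to 1.40 above that mean on the log2 scale.

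The largest positive differences were those of a pair of members spanning 223 bases each. DPOGS207744 (scaffold DPSCF300042, positions 733036 to 733259) had 1187 to 2760 FPKM in LP with a median of 1783, and 3358 to 16818 with a median of 7496 in SP, a log2 difference of 1.99 ± 0.19 (SE). DPOGS213218 (scaffold DPSCF300114, positions 464550 to 464773) had 3933 to 4629 FPKM in LP with a median of 4275, and 8939 to 20545 with a median of 13074 in SP, a log2 difference of 1.61 ± 0.11 (SE). Neither had an SP library within its LP range.

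The largest negative difference was that of DPOGS206151 (scaffold DPSCF300028, positions 1571434 to 1574858). It had 1465 to 2328 FPKM in LP with a median of 1955, and only 48.1 to 384 FPKM with a median of 121 in SP, a log2 difference of -3.87 ± 0.24 (SE). Its rank by mean FPKM was 985 in SP, the lowest rank of any member in that group. DPOGS200542 (scaffold DPSCF300119, positions 130247 to 139850) had 2282 to 3008 FPKM in LP with a median of 2718, and 286 to 1324 with a median of 784 in SP, a log2 difference of -1.81 ± 0.17 (SE). The groups overlapped for neither gene.

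In the neighbourhood of DPOGS206151, the adjacent member DPOGS206152 differed the other way: it had 2512 to 3533 FPKM in LP with a median of 2880, and 3213 to 5130 with a median of 4190 in SP. In Migrant DPOGS206152 had 578 to 1680 FPKM, below all libraries of both other groups, while DPOGS206151 was at its highest there.

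The comparison of Migrant with LP sets wild-caught migrants against laboratory butterflies in long days. Most members were lower in Migrant, in which direction the genes tested also leaned: the median log2 difference was -0.79 over the members and -0.39 over the genes tested. Limma called 1 member higher and 87 lower, against 7.64% and 63.4% of the genes tested. At least a 2-fold difference was called for no member higher and 37 lower (1.37% and 7.15%), and the libraries did not overlap for no member higher and 52 lower (0.929% and 22.9%). As for SP, LP levels chose the members and nothing is read from these counts. With members chosen on one LP replicate and compared with the other, 83 and 86 were lower and 1 was higher in each choice.

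This direction depended on how the libraries were scaled to each other. After median-ratio scaling, which brings the median difference of the genes tested to -0.03, limma called 10 members higher and 62 lower (23.6% and 26.6% of the genes tested), with a median of -0.38. After scaling every library to the same summed FPKM, a sum that DPOGS214898 dominates, 38 were called higher and 22 lower (73% and 3.77%), and the median turned to 0.22, against 0.51 over the genes tested.

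The members furthest apart between Migrant and LP kept their direction on all 3 scales. DPOGS204890 (scaffold DPSCF300307, positions 79099 to 79818) had 2014 to 2952 FPKM in LP with a median of 2427, and 69.0 to 435 with a median of 181 in Migrant, on a mean of 97.9 reads. Its log2 difference was -3.70 ± 0.18 (SE) as deposited and -2.70 after scaling to the same sum. DPOGS214778 (scaffold DPSCF300022, span 254 bases) had 1618 to 3504 FPKM in LP with a median of 2393, and 186 to 506 with a median of 264 in Migrant, a log2 difference of -3.06 ± 0.13 (SE). Both lay far below LP in every Migrant library.

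The only member called higher in Migrant than in LP was DPOGS202848 (scaffold DPSCF300018, span 478 bases). It had 4151 to 5813 FPKM in LP with a median of 4786, and 5685 to 10726 with a median of 6803 in Migrant, a log2 difference of 0.52 ± 0.11 (SE). The groups overlapped at the edge, and the difference was positive at 8 of 8 times.

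The comparison of Migrant with SP sets migrants against laboratory butterflies in short days, and did not enter the choice of the members. Nearly all members were lower in Migrant. The median log2 difference was -1.81 over the members and -0.30 over the genes tested. Limma called 4 members higher and 92 lower, against 29.5% and 52.2% of the genes tested. At least a 2-fold difference was called for 2 members higher and 80 lower (13.9% and 21.2%), and the libraries did not overlap for 2 members higher and 75 lower (9.77% and 25.3%). The direction was the same at all 8 times for 95 members, a count not made over the genes tested.

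The members' median and the balance of calls kept their direction on the other scales, though single members such as DPOGS207741 did not. After median-ratio scaling 7 members were called higher and 90 lower (41.4% and 40.5% of the genes tested), with a median of -1.44. After scaling to the same sum 10 were called higher and 76 lower (58.5% and 18.5%), with a median of -0.91 against 0.46 for the genes tested. With only the SP pools of replicate 1 the counts were 6 higher and 91 lower, and with only those of replicate 2 they were 3 and 95.

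DPOGS206151 had 2051 to 4002 FPKM in Migrant with a median of 2514, against a median of 121 in SP, and its log2 difference of 4.33 ± 0.24 (SE, limma adjusted p = 1.66e-15) was the largest positive one. DPOGS200542 had 1331 to 2776 FPKM in Migrant with a median of 1572, a log2 difference of 1.11 ± 0.17 (SE, limma adjusted p = 9.14e-07). The lowest Migrant library of DPOGS200542 lay just above its highest SP library, and DPOGS206151 was many times higher in every Migrant library than in any SP library.

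DPOGS204890 showed the largest negative difference between Migrant and SP. Its SP libraries had 2995 to 6105 FPKM with a median of 4128, a log2 difference of -4.49 ± 0.18 (SE, limma adjusted p = 4.08e-18). DPOGS205986 (scaffold DPSCF300164, positions 200980 to 202516) had 5615 to 11143 FPKM in SP with a median of 8422, and 185 to 909 with a median of 540 in Migrant, on a mean of 39.9 reads. Its log2 difference was -4.10 ± 0.14 (SE, limma adjusted p = 9.34e-20). In Migrant both genes were below all libraries of both other groups.

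**Figure D3:**
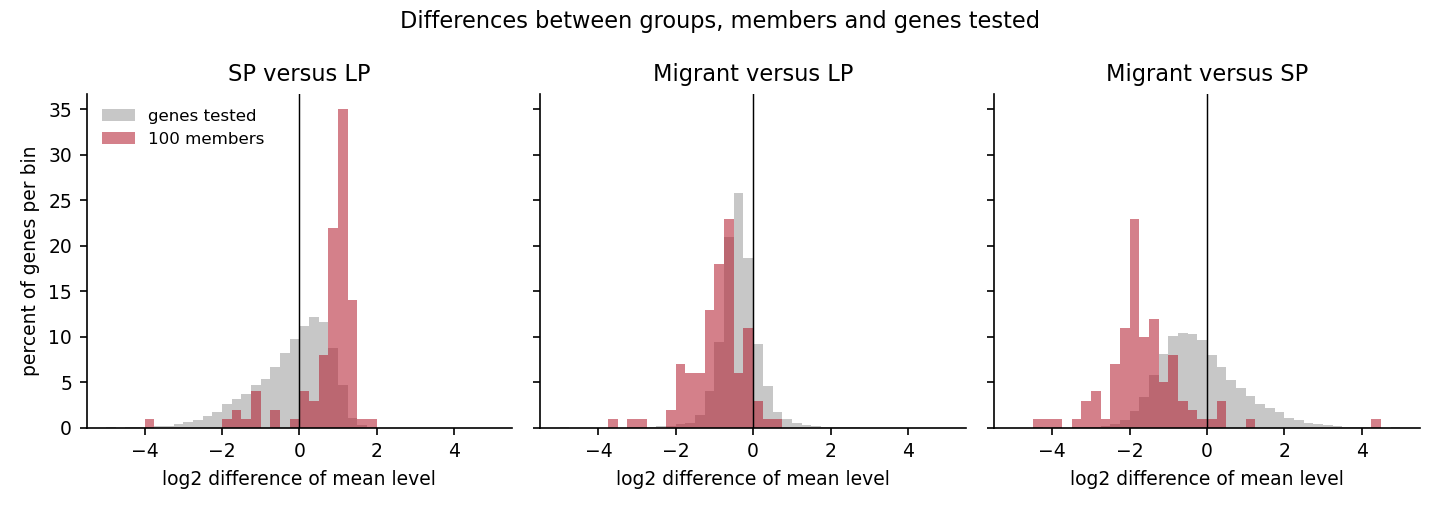
Percent of genes in bins of the log2 difference of mean level, for the 100 members (red) and the 11630 genes tested (grey), in the 3 comparisons as deposited. The members' median is 1.01 between SP and LP, -0.79 between Migrant and LP and -1.81 between Migrant and SP; on a same-sum scale the second of these turns to 0.22.

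Put together as values, 72 members were called higher in SP than in LP, lower in Migrant than in LP and lower in Migrant than in SP. The 3 comparisons share their libraries, so this count is a description of one ordering of groups. How many of the genes tested had this or the following patterns was not counted, so nothing particular to the members is read from them. A further 11 were higher in SP than in LP with no call between Migrant and LP. Of the 12 members lower in SP than in LP, 11 were also lower in Migrant than in LP, and the other one was DPOGS206151. The 4 members with no call between SP and LP were lower in Migrant than in both.

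The direction was much the same in members of short and long span. In the comparison of Migrant with SP, the median log2 difference was -1.65 for the 20 members under 300 bases, -1.95 for the 28 members of 300 to under 1000 bases, and -1.74 for the 52 of 1000 bases or more. Genes tested in the same classes of span had medians of -0.30, -0.67 and -0.24. For SP versus LP the members' medians were 0.88, 1.06 and 0.97, and those of the genes tested 0.07, 0.31 and -0.06.

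Membership itself shifted between groups. Of the 100 members, 82 were also among the 100 highest in SP by the same rule, 78 among the 100 highest in Migrant, and 67 among both. A choice on the LP pools of replicate 1 alone kept 95 members, and one on replicate 2 kept 96.

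**Figure D4:**
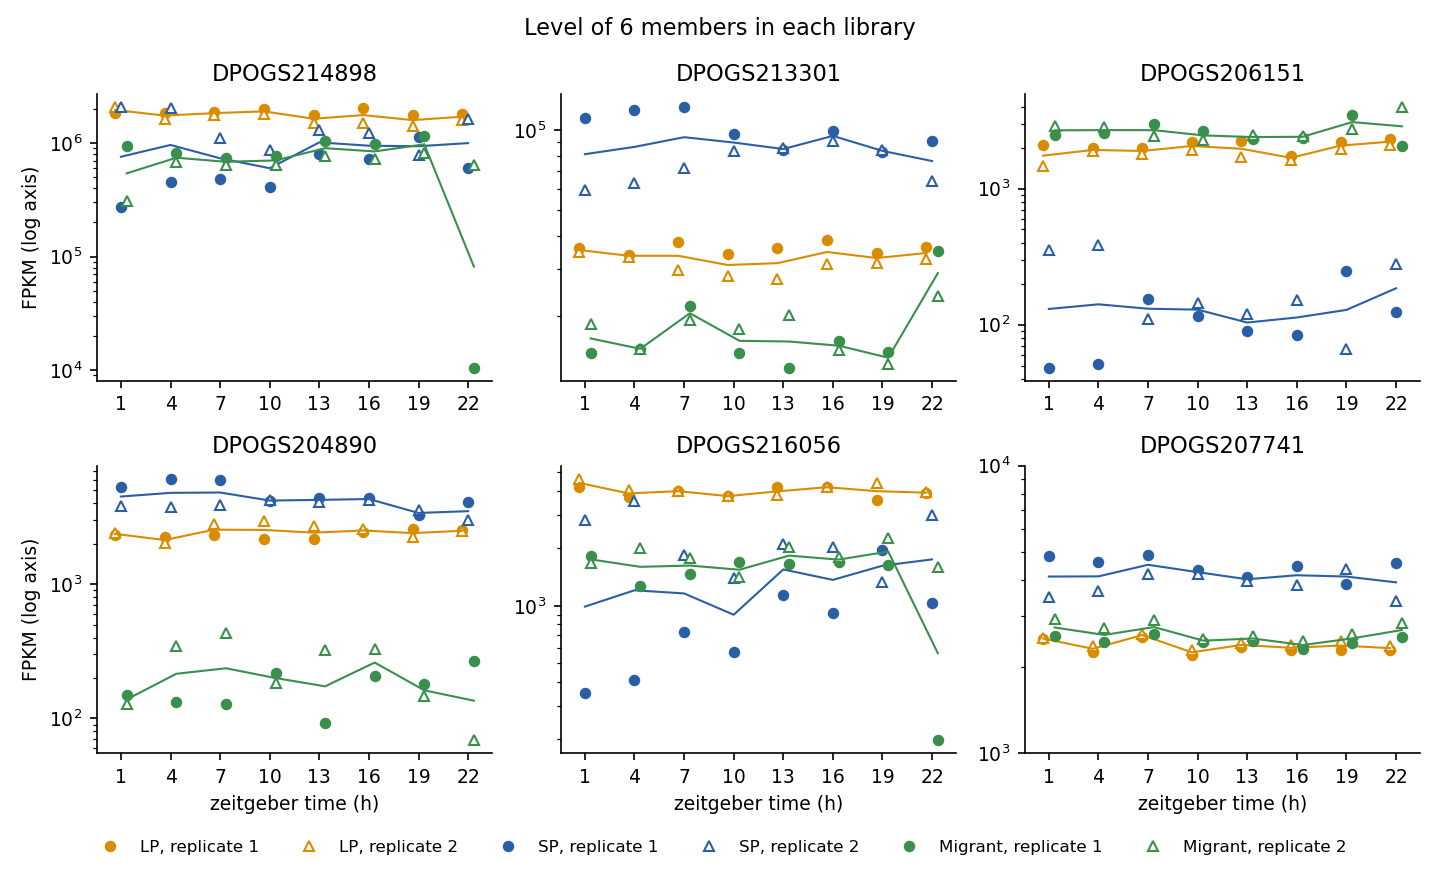
FPKM (log axis) of 6 members in each library against zeitgeber time; filled circles are replicate 1, open triangles replicate 2, and lines join geometric means of both pools. DPOGS206151 lies between 48.1 and 384 FPKM in SP and above 1465 elsewhere, DPOGS204890 lies below 435 FPKM in Migrant, and DPOGS214898 falls to 10488 FPKM in 1 Migrant library at ZT22.

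Rhythms over the day were fitted in each group with cosine and sine terms of 24 h, which are independent of the mean that chose the members. No member was called rhythmic in LP, SP or Migrant, where limma called 0.447%, 0.929% and 1.52% of the genes tested. At an unadjusted p under 0.05 there were 2, 3 and 14 members, against 2.67%, 8.74% and 15.6% of the genes tested. An F-test over the 8 times, a model with 24 h and 12 h cosines and fits to each group alone also called no member. These counts do not show that the levels were constant.

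Amplitudes, the log2 distance from mean to peak, were small. Their median was 0.04 for LP, 0.08 for SP and 0.14 for Migrant, against 0.06, 0.13 and 0.14 over the genes tested. After median-ratio scaling the SP median was 0.12 for members and genes tested alike. On the same-sum scale the members' medians were 0.06, 0.14 and 0.27, against 0.08, 0.15 and 0.21 over the genes tested, so in Migrant the members' median was then the larger. The summed FPKM was 845750 in Migrant ZT22 replicate 1 and 1101300 or more in the other Migrant libraries. Amplitudes on this scale were not worked out without that library.

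The lowest adjusted p in each group, chosen after the values were seen, belonged to 3 members. In LP it was that of DPOGS205266, with an amplitude of 0.40 ± 0.12 (SE) and a peak at ZT 2.2 (limma adjusted p = 0.624). In SP it was that of its neighbour DPOGS205265, with an amplitude of 0.32 ± 0.10 and a peak at ZT 2.58 (limma adjusted p = 0.272). Both genes span 202 bases.

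In Migrant the lowest was that of DPOGS200401, with an amplitude of 0.20 ± 0.05 (SE) and a peak at ZT 0.337 (limma adjusted p = 0.068). It was called with voom on recovered reads, and when Migrant ZT1 replicate 1, ZT4 replicate 2 or ZT19 replicate 1 was left out, with limma adjusted p-values of 0.0128 to 0.0453 over these 4 fits.

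The SP result rested on using both pools. With only the SP pools of replicate 1, limma called 14 members rhythmic in SP, against 25% of the genes tested, and with only those of replicate 2 it called 7, against 12.7%. With 1 pool per time, differences between SP pools of the same time no longer entered the shared estimate of spread. Why more members were called in these fits was not tested. A difference of rhythm between groups was called for no member in any of the 3 comparisons, where 0%, 0.0172% and 0.0086% of the genes tested were called (SP with LP, Migrant with LP, Migrant with SP). At an unadjusted p under 0.05 there were 0, 2 and 2 members, against 2.24%, 5.37% and 7.53% of the genes tested.

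The difference between pools labelled female and male was tested within times, as a further comparison the choice of members did not use. It was widespread in SP and rare in LP and Migrant. In SP limma called 8 members higher and 62 lower in pools labelled female, against 34.8% and 8.6% of the genes tested, with a median log2 difference of -0.31 over the members and 0.16 over the genes tested. In LP 1 member was called higher and none lower (0.378% and 0.843%), and in Migrant none higher and 5 lower (0.0774% and 0.808%). With each group fitted alone, 13 members were called in SP (6.79% of the genes tested), 33 in LP (16.8%) and none in Migrant (0.12%), so the counts depend on whether the groups share 1 estimate of spread. The SP count was 46 without SP ZT4 replicate 2, and 82 without SP ZT19 replicate 1. The LP count was 6 without Migrant ZT22 replicate 1. The Migrant count ran from none without Migrant ZT13 replicate 1 to 7 without Migrant ZT19 replicate 2.

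In SP, DPOGS214841 (scaffold DPSCF300091, span 2060 bases) was lower in the pool labelled female at 8 of 8 times, by -1.18 ± 0.15 on the log2 scale (SE, limma adjusted p = 2.1e-05). Its SP libraries ran from 6650 to 28193 FPKM with a median of 13685. DPOGS206997 (scaffold DPSCF300001, span 6386 bases) was also lower in SP pools labelled female at 8 of 8 times, by -0.61 ± 0.08 on the log2 scale (SE, limma adjusted p = 2.8e-05). DPOGS206997 was also the one member called in LP, and there it was higher in pools labelled female at 8 of 8 times, by 0.38 ± 0.08 (SE, limma adjusted p = 0.0121). This call was lost after median-ratio scaling, with a difference of 0.40, and after scaling to the same sum, with 0.30. In both groups replicate 1 was the higher pool of DPOGS206997.

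In Migrant the called members were lower in pools labelled female. DPOGS206902 had 398 to 813 FPKM with a median of 517, and was lower in 7 of 8 pairs, by -0.52 ± 0.11 on the log2 scale (SE, limma adjusted p = 0.0245). This call was lost in 10 of the fits that left out 1 Migrant library, with differences of -0.51 to -0.46, after median-ratio scaling (-0.46) and with Migrant fitted alone. DPOGS200099 had 172 to 1698 FPKM with a median of 1059, and was lower in 8 of 8 pairs by -0.94 ± 0.21 (SE, limma adjusted p = 0.0272). Without Migrant ZT22 replicate 1 the difference of DPOGS200099 was -0.62 and still called. Its call was lost in 4 other fits that left out 1 Migrant library, with voom (-0.53) and with Migrant fitted alone.

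Averaged over the times, SP replicate 1 lay further from LP than SP replicate 2 for most members called between SP and LP. Of the 84 members called higher in SP than in LP, 83 were on average higher in SP replicate 1 than in replicate 2, with a median log2 difference of 0.35. Of the 12 members called lower in SP, 11 were lower still in replicate 1, with a median of -0.64. Neither count was made over the genes tested, and the same SP pools entered the calls between SP and LP. Nothing particular to the members is therefore read from these counts. The pools differed most at ZT1 and ZT4, where the median member was 0.75 and 0.72 higher in replicate 1 on the log2 scale, and at ZT19 it was 0.23 lower. Over the genes tested the median difference, replicate 1 minus 2, was -0.34 at ZT1, -0.29 at ZT4 and 0.08 at ZT19. With only the SP pools of replicate 1 the members' median difference between SP and LP was 1.19, and with only those of replicate 2 it was 0.83, with 86 and 84 members called higher.

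The spread between pools, the SD of the log2 level of pools of 1 time, was lowest in LP. Both pools of a time carried different labels, so this spread includes any steady difference between labels or replicates. Over the members the median spread was 0.135 for LP, 0.355 for SP and 0.242 for Migrant, against 0.156, 0.341 and 0.271 over the genes tested. Counting error alone gives a median of 0.020, 0.018 and 0.026 for the members, and 0.093, 0.115 and 0.104 for the genes tested. These medians do not hold for every member: spread was under 2 times the counting error for 9 members in LP, 1 in SP and 3 in Migrant. For DPOGS202633 in Migrant it was 0.223, against a counting error of 0.213. A spread over 0.5 was found for 0 members in LP, 13 in SP and 9 in Migrant (6.65%, 29.8% and 17.1% of the genes tested). Spread in SP was larger than in LP for 94 members (82.4% of the genes tested), and spread in Migrant for 86 (80.1%).

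The Migrant spread rested in part on the ZT22 pair. Without that pair its median was 0.161 over the members and 0.163 over the genes tested, 2 members were over 0.5 (8.87% of the genes tested), and 66 had a larger spread than in LP (56.5%). DPOGS214898 had the largest Migrant spread at 1.55, and 0.494 without the ZT22 pair. For DPOGS200099 it was 0.919, and 0.486 without that pair.

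The members with the largest spread differed between groups. In LP they were DPOGS205266 at 0.446, with 1649 to 5485 FPKM and a median of 2923, and DPOGS209090 at 0.441, with 5009 to 10316 FPKM and a median of 6612. In SP they were DPOGS216056 at 1.30, with 348 to 3548 FPKM and a median of 1371, and DPOGS206151 at 1.18. DPOGS216056 (scaffold DPSCF300067, span 1890 bases) had a mean of 61906 reads in LP and a spread of only 0.093 there, so the same gene was among the steadier ones in LP and the least steady in SP.

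The steadiest members in LP were DPOGS207741 (scaffold DPSCF300042, span 1177 bases) at 0.040 and DPOGS214523 at 0.050. DPOGS207741 had 2197 to 2604 FPKM with a median of 2354 in LP, 3373 to 4873 with a median of 4188 in SP, and 2298 to 2938 with a median of 2535 in Migrant. Its pools differed little in LP but more in SP, most at ZT1, with 4864 FPKM in replicate 1 and 3478 in replicate 2. As deposited it lay higher in every SP library than in any LP or Migrant library. Its log2 difference between Migrant and SP was -0.69 as deposited and turned to 0.21 on the same-sum scale. In SP the steadiest were DPOGS202679 at 0.090 and DPOGS214837 at 0.104, and in Migrant DPOGS216087 at 0.082 and DPOGS205446 at 0.091. Between Migrant and SP all 4 of these were lower in Migrant, with log2 differences of -0.97, -1.98, -1.49 and -1.98. On the same-sum scale these were -0.07, -1.07, -0.59 and -1.07, so the first all but vanished.

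**Figure D5:**
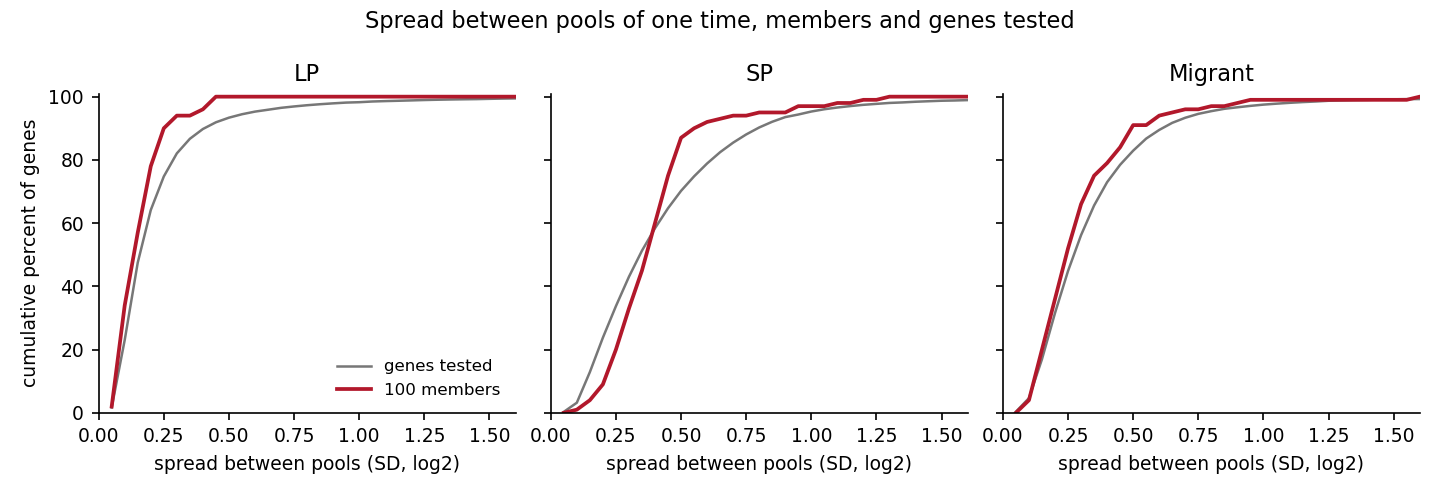
Cumulative percent of genes up to a given spread between pools of 1 time (SD of the log2 level) in each group, for the 100 members (red) and the 11630 genes tested (grey). The members' median is 0.135 for LP, 0.355 for SP and 0.242 for Migrant, and in SP the members lie to the right of the genes tested below about their median and to the left above it.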

How the data were processed

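Polyadenylated RNA of 48 pools of monarch brains was sequenced. Per the submitters' processing notes, the authors used CASAVA 1.8.2, TopHat2 and Cufflinks to make the deposited FPKM values with their confidence limits. The versions of TopHat2 and Cufflinks and the genome build are not given in the sources used here. FPKM divides by transcript length, so 1 read of a very short gene weighs much. Reads were recovered as (2 × FPKM / (upper limit − FPKM)) squared. Below 30 reads, between 82.5% and 85.1% of such values in a library came within 0.05 of whole reads. Recovered reads were used for depth, for voom and for the minimum of reads that members had to meet. Ranks and shares by reads, reads per FPKM and the counting error also rest on them.

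Levels were analysed as log2(FPKM + 1), a scale that understates changes of low genes, with limma 3.58.1 in R 4.3.3 (trend and robust, Benjamini-Hochberg adjustment over the 11630 genes whose mean FPKM reached 0.5, calls at an adjusted p under 0.05). The 48 libraries entered each fit and shared 1 estimate of spread. Group means were compared in a model of 24 means, 1 for each group and time. Rhythms were tested as 24 h cosine and sine terms (2 degrees of freedom), and female minus male labels within times. Spread per gene was the root mean square over 8 times of the log2 difference of both pools, divided by the square root of 2. The models were tested on simulated data. Python 3.11.15 with pandas 2.3.3 joined the tables, and matplotlib 3.10.9 made the figures.

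The members, lists and tests were chosen with earlier results of these data known. Named genes were the 5 highest in LP, the genes at the edges of the rule, the 2 largest called differences in each direction with the same sign at all 8 times, the 2 smallest adjusted p-values for rhythm and label among called members, and the 2 largest and smallest spreads per group. Genes outside this were named after their values were seen. The lists of named pathway genes and cell type markers could not be used, since no identifier had a name. No 2 tables of a group were identical. Alternatives were other scalings, filters, pseudocounts, tools, member choices and each library left out.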

Additional observations from a re-analysis of the deposited data

Results flagged for a closer look

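The difference between pools labelled female and male went one way at all 8 times in LP and the other way at all 8 times in SP for 3 members. For DPOGS206997 the female minus male log2 difference was 0.38 in LP and -0.61 in SP, 0.99 apart. For DPOGS214841 it was 0.44 in LP and -1.18 in SP, 1.62 apart. For DPOGS206152 it was 0.31 in LP and -0.35 in SP, 0.65 apart. The difference between the groups was not tested for any of them. Replicate 1 was labelled female in LP and male in SP, so in both groups replicate 1 was the higher pool of these 3 genes, and sex label and replicate number cannot be told apart. In Migrant, where replicate 1 was labelled female, none of the 3 was called. The difference there was 0.16 for DPOGS206997 and 0.38 for DPOGS214841, each positive at 7 of 8 times. For DPOGS206152 it was 0.12, positive at 4 of 8 times.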

How the results depend on the processing

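Values below follow the order LP, SP and Migrant, or SP versus LP, Migrant versus LP and Migrant versus SP. Over all settings, 835 values for the member set moved by less than the limits used and 63 moved by more. These values are counts of calls, shares and spreads, and the direction of the Migrant versus LP calls did change: scaling to the same sum turned 1 higher and 87 lower into 38 and 22, and the median from -0.79 to 0.22. Of the values for single genes, 20 kept their direction but lost the call, for DPOGS206997 in LP and for DPOGS206902 and DPOGS200099 in Migrant (labels), and 919 kept it. Leaving out each of the 48 libraries in turn, 95 to 96, 86 to 92 and 95 to 97 members were called for level. It called 0 to 0, 0 to 0 and 0 to 1 for rhythm, 0 to 0 in each comparison for a difference of rhythm, and 1 to 6, 46 to 82 and 0 to 7 for labels. Shares of summed FPKM were 73.61% to 74.04%, 63.26% to 64.59% and 62.46% to 64.85%, and median spreads 0.117 to 0.141, 0.305 to 0.377 and 0.161 to 0.258.

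For labels, median-ratio scaling gave 0 members in LP and 1 in Migrant, and scaling to the same sum gave 0 in LP. Each group alone gave 33, 13 and 0, and voom gave 6 in LP and 1 in Migrant. Of the 50 highest members, 2% were called in LP and 2% in Migrant. For rhythm in Migrant voom gave 1. Shares were 13.19%, 19.31% and 10.92% of recovered reads, 70.07% in LP and 56.41% in SP for the 50 highest, and 71.71% in LP for members chosen on its replicate 1. Scaling to the same sum gave spreads of 0.182, 0.574 and 0.432, and the median absolute pair difference gave 0.128 in Migrant. The cause of these shifts was not tested.

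Some alternatives were chosen after seeing the data. Without DPOGS214898 the shares were 34.34%, 44.65% and 29.91%. The 100 genes with the most reads in LP held 5.432%, 9.469% and 7.19% of the summed FPKM, with 2 called for rhythm in LP, 1 in Migrant, and 3 for labels in LP and 3 in Migrant. With only SP replicate 1, 14 members were called for rhythm in SP, and 5 for each difference of rhythm with SP. With only replicate 2 these were 7, 1 and 1. Without both Migrant ZT22 pools 6 were called for labels in LP.

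The correlation of pool differences at a time reached 0.163 between LP and SP, 0.110 between LP and Migrant and 0.086 between SP and Migrant. Its lowest values were -0.000, -0.122 and -0.088. These correlations compare groups, so they cannot show whether pools of one replicate number shared a source within a group, which was not tested. With replicate number as a block, 96, 89 and 96 members were called for level, and 0 for each rhythm and each difference of rhythm. Depth limits the members with few reads, of which 7 had a mean under 100 in Migrant. Wild origin and kit cannot be told apart from the Migrant group.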
